A study of Mus musculus with 6 samples.

Results

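The genes described here repair DNA damage or halt the cell cycle while damage is present, and they were measured in pancreatic islets of non-pregnant and of pregnant mice. The list holds 48 genes. For 47 of them the array carried at least 1 probe set with that gene as its only symbol, out of 18193 genes named in this way; Xrcc2 had none and is not analysed here. Each gene was read from its brightest probe set over the 6 arrays, and the choice used no comparison between groups. By role, 30 of the 47 genes act mainly at replication forks or on newly copied DNA (homologous recombination, the Fanconi anaemia pathway, mismatch repair and the fork checkpoint), and 17 act on breaks and damaged bases throughout the cell cycle (break signalling, end joining, base excision and single-strand repair).

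Islets were isolated with collagenase from non-pregnant mice, labelled 0 days post coitum (dpc), and from pregnant mice at 12.5 dpc, with 3 arrays in each group. The labels name no strain, age or allele. The study asked which factors make islet cells multiply in pregnancy. Values are MAS5 signals, an intensity on a linear scale that was scaled to the same trimmed mean of 500.003 on each array. Differences are on the scale log2(signal + 16), tested with limma over 27022 probe sets, and a gene is said to rise or fall only at a Benjamini-Hochberg adjusted p under 0.05. Whether arrays within a group stem from different animals is not stated in the labels, so p-values reflect only how far these 6 samples scatter, possibly for technical reasons, and their number limits the precision.

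Copying the genome exposes single-stranded DNA wherever a replication fork stalls. The kinase ATR, with its partner ATRIP and its activator TOPBP1, senses this and, through the adaptor claspin and the fork protection pair TIMELESS and TIPIN, switches on the kinase CHK1, which holds back further origin firing and mitosis. Broken forks are rebuilt by homologous recombination with the sister copy, crosslinks are removed by the Fanconi anaemia proteins and copying errors by mismatch repair. Breaks outside replication are signalled by ATM and CHK2 and mostly rejoined end to end by the Ku proteins and ligase IV, while oxidised or deaminated bases are cut out by base excision repair. Many genes of the first kind are known targets of E2F factors, which switch on the genes needed for S phase. Adult islet cells divide rarely, and beta cells of rodents are known to divide more in pregnancy.

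Promoter windows of 300 bases (250 before to 50 after the annotated start) were read from RefSeq sequence of build GRCm38.p6, which held 44 windows for 41 of the members. They were searched on both strands for the E2F site, spelled TTTGGCGC, TTTCCCGC, TTTCGCGC or TTTGCCGC. A match was found in 9 of 28 windows of replication-coupled genes (32.1%) and in 2 of 16 windows of the other repair genes (12.5%). The same search matched 501 of 13380 windows of all genes tested (3.74%) and 744 of 32851 windows in the whole table (2.26%). In the list of 30 DNA replication genes described further on, 11 of 29 windows matched (37.9%). CCAAT was found in 16 of 28 and in 7 of 16 windows, against 37.4% of the whole table. The CHR element of mitotic genes, TTTGAA or TTCGAA, was found in 2 of 28 and in 2 of 16 windows, against 19.2% of the whole table and 13.5% of the windows of genes tested, and in 11 of 13 windows of a list of mitosis genes. Matches on opposite strands overlapped in the window of Msh3, at bases 49 and 53. A match is a run of letters and no evidence of binding. 4 windows are printed 5′ to 3′ on the gene's strand, with the E2F match in capitals, because they show E2F matches in a member that rose and in 3 members of different roles that did not pass the test. These are Clspn, the member that rose (chr4:126556730-126557029, + strand, match from base 272), the fork gene Topbp1 (chr9:103305077-103305376, + strand, base 122), the mismatch repair gene Msh6 (chr17:87974800-87975099, + strand, base 266) and the end-joining gene Xrcc6 (chr15:82016119-82016418, + strand, base 205).
Clspn: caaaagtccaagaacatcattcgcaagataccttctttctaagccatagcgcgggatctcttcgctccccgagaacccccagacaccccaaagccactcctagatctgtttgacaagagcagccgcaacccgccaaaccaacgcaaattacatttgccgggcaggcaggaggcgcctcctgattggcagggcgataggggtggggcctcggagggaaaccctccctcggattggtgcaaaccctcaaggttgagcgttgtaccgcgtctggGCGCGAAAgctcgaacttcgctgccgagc
Topbp1: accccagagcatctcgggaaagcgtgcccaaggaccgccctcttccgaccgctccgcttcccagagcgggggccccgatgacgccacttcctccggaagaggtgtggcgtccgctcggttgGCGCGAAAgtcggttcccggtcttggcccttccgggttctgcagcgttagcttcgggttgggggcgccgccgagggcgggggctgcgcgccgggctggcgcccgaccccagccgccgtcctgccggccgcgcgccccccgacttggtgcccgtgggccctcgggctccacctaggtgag
Msh6: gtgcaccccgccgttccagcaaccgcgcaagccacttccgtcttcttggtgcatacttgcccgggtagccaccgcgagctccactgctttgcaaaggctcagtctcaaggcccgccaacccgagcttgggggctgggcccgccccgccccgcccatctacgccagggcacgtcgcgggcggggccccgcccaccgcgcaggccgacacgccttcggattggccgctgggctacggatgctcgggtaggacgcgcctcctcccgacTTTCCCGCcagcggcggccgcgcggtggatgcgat
Xrcc6: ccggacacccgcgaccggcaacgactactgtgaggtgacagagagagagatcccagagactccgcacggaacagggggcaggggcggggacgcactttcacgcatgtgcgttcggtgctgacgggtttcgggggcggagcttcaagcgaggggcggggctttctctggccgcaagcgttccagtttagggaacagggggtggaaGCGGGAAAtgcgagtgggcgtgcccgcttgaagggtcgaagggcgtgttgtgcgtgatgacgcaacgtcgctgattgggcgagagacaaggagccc

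Of the 47 genes, 40 were bright enough to be tested, and 1 of these rose in pregnancy, claspin (Clspn), while 0 fell. Over all 12914 genes tested, 6.1% rose and 5.79% fell, so the share of members past the threshold (2.5%) was not above that of the genome. At an unadjusted p under 0.05 there were 5 members (Clspn, Tipin, Chek1, Rad51ap1 and Fanca), all with higher signals in pregnancy, where 3516 of the 12914 genes tested reached that p, a larger share. Replication-coupled genes had a median log2 difference of 0.21 with 18 of 24 above 0, and the other repair genes a median of -0.01 with 7 of 16 above 0, where all genes tested had a median of -0.04 with 43.5% above 0. With each array centred on its median the second median was 0.06, and 0.05 with quantile normalization, while the first was 0.28 and 0.26. The counts above 0 then came closer to each other, with 20 of 24 and 13 of 16 after median centring and 20 and 10 after quantile normalization. The median of all genes tested moved as well, to 0.04 with median centring and to -0.01 with quantile normalization. In 9 of the 24 and in 1 of the 16 all pregnant arrays lay above all non-pregnant arrays, which 13.9% of all genes did. The reverse held for 1 of the 24, 0 of the 16 and 17.9% of all genes. Most of the 9 replication-coupled genes with pregnant arrays above were fork checkpoint genes (6 of the 7 tested). Homologous recombination had 2 of 7, the Fanconi anaemia pathway 1 of 7 and mismatch repair 0 of 3. These are descriptions of the lists and not a test of one against the other.

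**Figure D1:**
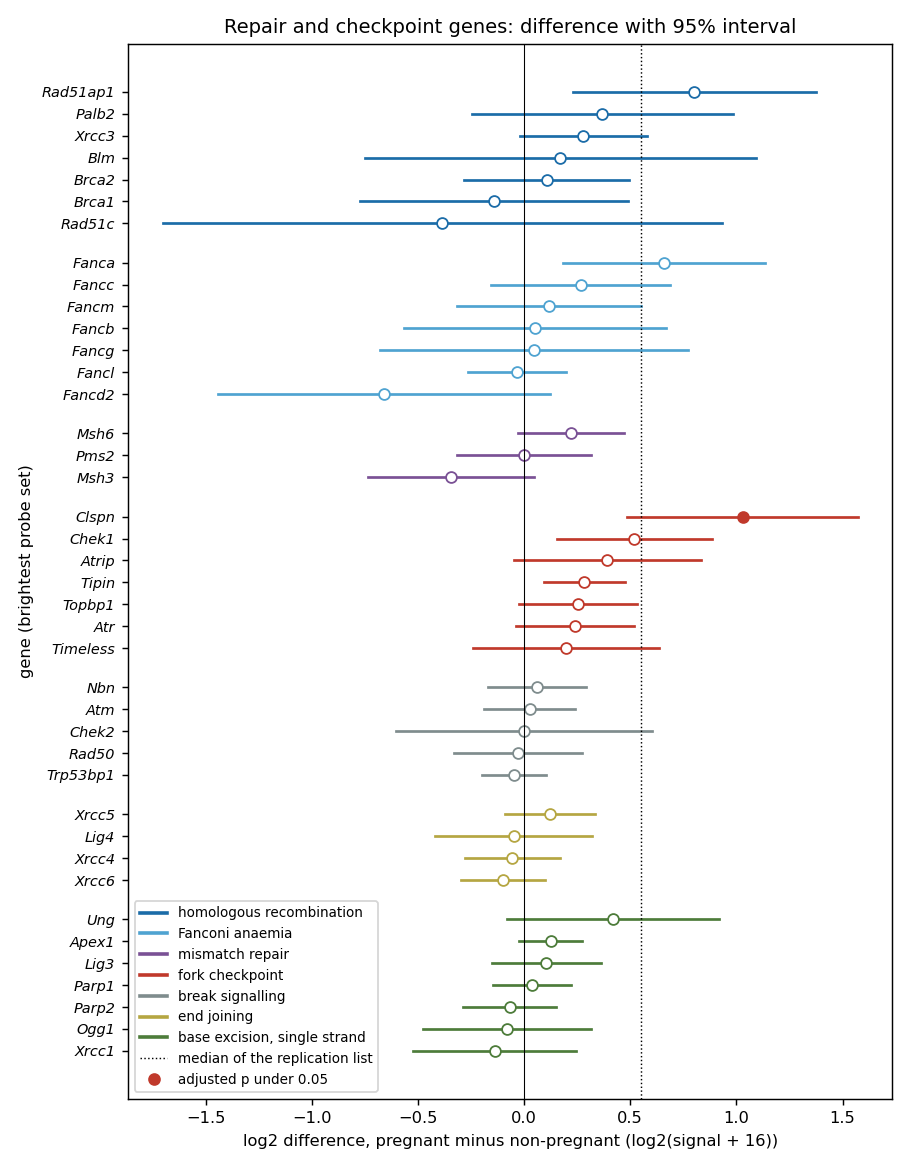
Log2 difference (pregnant minus non-pregnant, x axis) of each of the 40 tested genes (y axis), grouped and coloured by role; points are limma estimates from 3 arrays against 3, lines their 95% intervals, and the dotted line is the median of the DNA replication list (0.55). Clspn, the filled point, is the gene past an adjusted p of 0.05, and the 7 fork checkpoint genes all lie to the right of 0.

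In the fork checkpoint all 7 genes had higher mean signals in pregnancy, with a median log2 difference of 0.28, and 1 of them passed the test. Claspin, the adaptor that brings CHK1 to ATR, had signals of 57.0, 79.3 and 75.6 on the non-pregnant arrays and 133.5, 213.9 and 141.5 on the pregnant arrays. The groups did not overlap, and the lowest pregnant value lay well above the highest non-pregnant one. The pregnant mean of 163 ± 44.3 (SD, n = 3) was 2.31 times the non-pregnant mean of 70.6 (n = 3). On the log2 scale the difference was 1.03 ± 0.25, given here and throughout with its standard error (adjusted p = 0.0225 in limma). In such bulk samples a larger share of cells with the transcript and more transcript per cell cannot be told apart. The call was lost without non-pregnant replicate 1 (adjusted p = 0.0599), without pregnant replicate 2 (0.115), with no filter on dim probe sets (0.0704) and without the variance trend (0.0612). It was also lost with the acinar marker median of each array as a covariate (0.86 ± 0.46, adjusted p = 0.452), where the standard error widened from 0.25 to 0.46. Markers of acinar cells, the enzyme-secreting cells around islets, were lower on the pregnant arrays, as described further on. Their array medians did not overlap between groups (-0.10 to 1.00 against -0.96 to -0.25), so this fit cannot separate acinar content from pregnancy. The part of acinar cells in the difference was not tested. A second, dimmer Clspn probe set had 63.6, 61.7 and 59.7 against 46.5, 53.6 and 70.9, a difference of -0.10 ± 0.30 (adjusted p = 0.885), and the mean over the gene's probe sets had 0.46 ± 0.19 (adjusted p = 0.179).

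Chek1, the effector kinase of this checkpoint, had signals of 150.8, 216.1 and 202.3 without pregnancy and 271.4, 280.5 and 276.2 in pregnancy. Again the groups did not overlap, and the pregnant arrays lay close together. Its log2 difference of 0.52 ± 0.17 did not pass (adjusted p = 0.0758), but it did with median centring (0.60, adjusted p = 0.0400) and quantile normalization (0.58, 0.0402). This probe set ends in _s_at, a suffix for probes that can match more than 1 transcript, and the other tested Chek1 probe set had 0.36 ± 0.28 (adjusted p = 0.511). Tipin, which with TIMELESS stabilises the stalled fork, had the most precise difference of the 7. Its signals were 876.9, 933.6 and 881.1 against 1022.4, 1170.0 and 1094.8, without overlap, and the difference was 0.28 ± 0.09 (adjusted p = 0.0668). It passed with median centring (adjusted p = 0.0477), quantile normalization (0.0491) and a filter that kept the top 40% (0.0489).

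The sensor kinase Atr had signals of 358.1, 309.8 and 377.3 against 421.2, 434.2 and 385.1, and a difference of 0.24 ± 0.13 (adjusted p = 0.292). A second, dimmer tested probe set of Atr had overlapping groups and a difference of -0.27 ± 0.31 (adjusted p = 0.668). Atrip, its binding partner, had 109.1, 129.3 and 166.2 against 170.2, 166.4 and 204.3 and a difference of 0.39 ± 0.20 (adjusted p = 0.281). For the activator Topbp1 the signals were 465.6, 355.3 and 449.9 against 476.0, 511.7 and 526.5, and the difference was 0.25 ± 0.13 (adjusted p = 0.269). In the brightest probe sets of these 3 genes the groups did not overlap, though the gap between them was narrower than the spread within the non-pregnant group. Timeless was the exception, with 237.6, 270.1 and 365.8 against 322.4, 257.4 and 433.6, groups that overlapped and a difference of 0.20 ± 0.20 (adjusted p = 0.628). Thus 6 of 7 fork genes had groups that did not overlap, against 13.9% of all genes, and the differences without Clspn ran from 0.20 to 0.52. With each gene's probe sets averaged, Topbp1 had -0.09. In the other settings tried all fork genes tested were above 0, which were 5 under the filter that kept the top 40% and 7 otherwise.

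**Figure D2:**
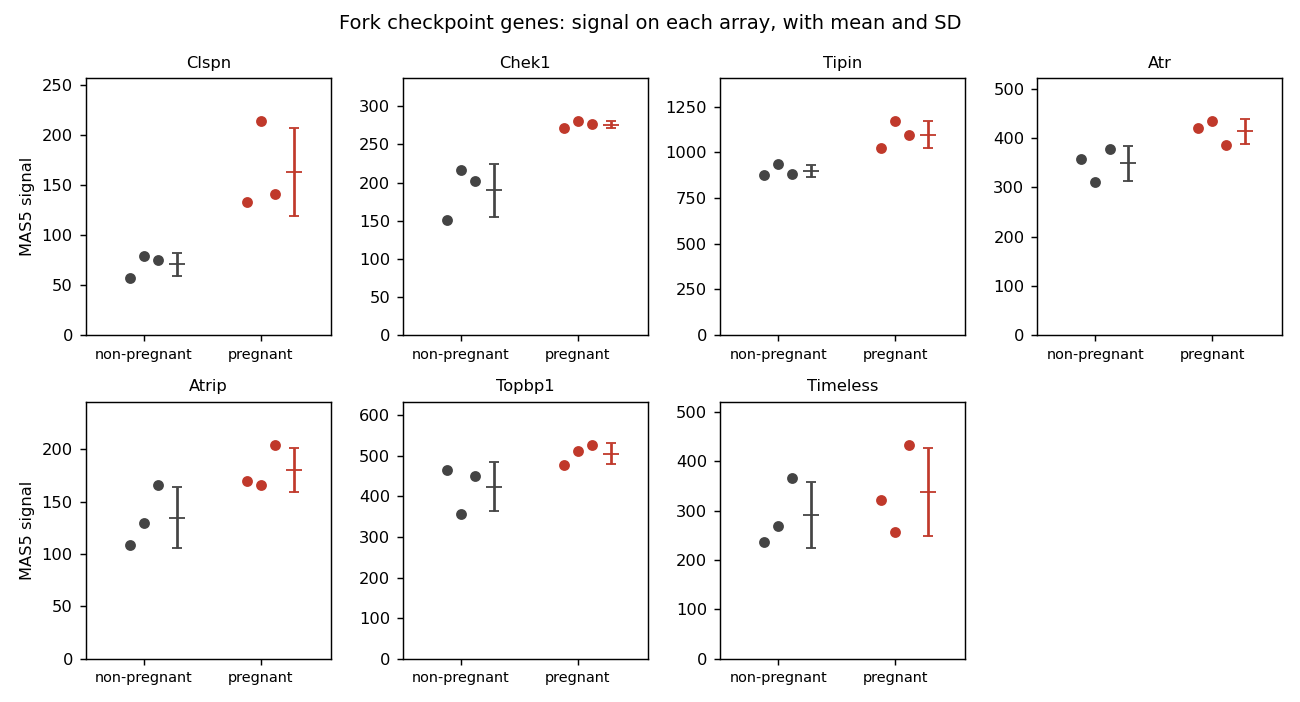
MAS5 signal (y axis, from 0) of the 7 fork checkpoint genes on each of the 3 non-pregnant (grey) and 3 pregnant (red) arrays; dashes and bars are the mean and SD of each group. The pregnant arrays lie above the non-pregnant arrays in every panel but that of Timeless.

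Among the genes of homologous recombination 0 of 7 tested passed and 1 had an unadjusted p under 0.05, with a median log2 difference of 0.17. Rad51ap1, which promotes the pairing of DNA strands, had signals of 105.7, 54.4 and 106.1 against 138.5, 156.4 and 192.3. The groups did not overlap, and the difference was 0.80 ± 0.26 (adjusted p = 0.0803). Rad51ap1 had 3 tested probe sets, and in another of them the signals were 53.4, 66.7 and 89.9 against 166.5, 183.8 and 235.9. There the mean went from 70.0 ± 18.5 to 195.4 ± 36.1, a ratio of 2.79, and the difference of 1.31 ± 0.24 passed (adjusted p = 0.00481). The third probe set had 0.45 ± 0.36 (adjusted p = 0.518), and the mean over the gene's 4 probe sets, a dim untested one included, passed with 0.95 ± 0.20 (adjusted p = 0.0194). Rad51ap1 therefore passed in 1 of 3 tested probe sets and in the mean of 4, but not in the brightest one.

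Brca1, the tumour suppressor that directs broken ends to recombination, also differed between its probe sets. In the brightest the signals were 98.2, 116.2 and 66.8 against 81.9, 59.3 and 110.1, groups that overlapped widely, with a difference of -0.14 ± 0.29 (adjusted p = 0.830). In the other tested probe set they were 50.6, 60.4 and 49.4 against 104.7, 129.5 and 168.3, without overlap. That probe set rose from 53.5 ± 6.03 to 134.2 ± 32.1, a ratio of 2.51 and a difference of 1.09 ± 0.26 (adjusted p = 0.0210). The remaining Brca1 probe sets were dim, with signals between 0.9 and 29.4, and the mean over all 4 had a difference of 0.22. These choices among probe sets were seen after the values were known, so the brightest probe set stays the reading given to the gene. Of the 71 tested probe sets of the members 3 were higher (1 each of Clspn, Brca1 and Rad51ap1) and 0 lower, where 4.79% of all probe sets tested were higher. Of the 20 members with several tested probe sets, 13 had differences on both sides of 0.

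**Figure D3:**
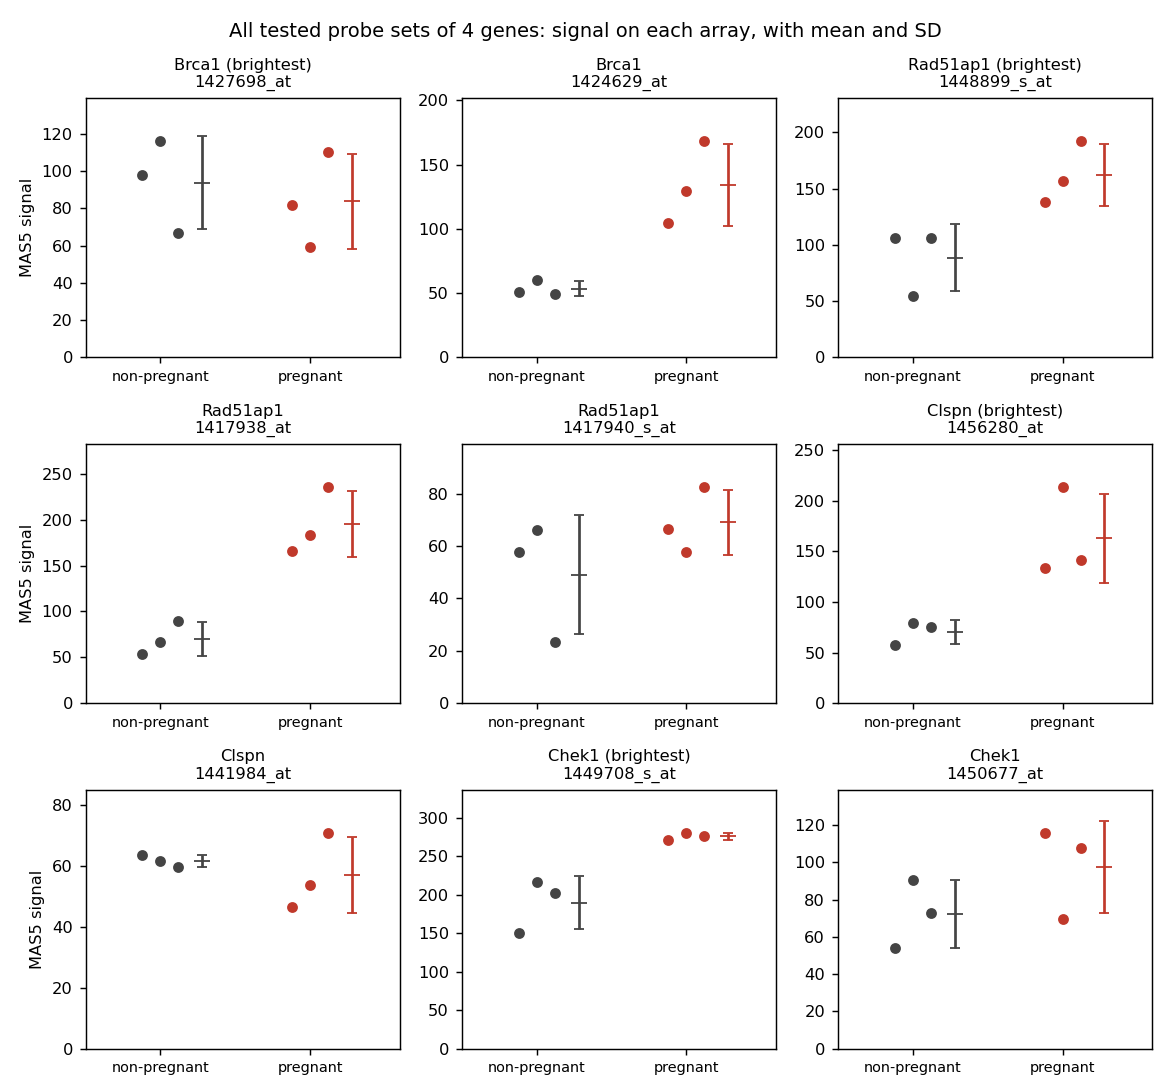
MAS5 signal (y axis, from 0) on the 3 non-pregnant (grey) and 3 pregnant (red) arrays for every tested probe set of Brca1, Rad51ap1, Clspn and Chek1, with the mean and SD of each group. For Brca1, Rad51ap1 and Clspn 1 probe set of each has pregnant arrays far above the others (ratios of 2.51, 2.79 and 2.31), while another probe set of the same gene has groups that overlap.

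Brca2, a tumour suppressor needed for recombination, had signals of 138.6, 178.7 and 164.8 against 164.1, 181.6 and 174.7, overlapping groups and a difference of 0.11 ± 0.18 (adjusted p = 0.788). Palb2, which joins BRCA1 to BRCA2, had pregnant signals of 82.2, 68.4 and 69.7 that all exceeded the non-pregnant maximum of 57.6, but at these low signals the difference of 0.37 ± 0.28 did not pass (adjusted p = 0.496). Xrcc3, also a recombination gene, had 0.28 ± 0.14 (adjusted p = 0.257), and its other tested probe set had 0.02 ± 0.15 (adjusted p = 0.959). The Bloom helicase Blm and the recombination gene Rad51c scattered too widely to be read. Their signals ran from 30.3 to 102.8 and from 14.9 to 159.3, and the standard errors were 0.42 and 0.60.

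In the Fanconi anaemia pathway 0 of 7 tested genes passed, 1 had an unadjusted p under 0.05, and the median difference was 0.05. Fanca, a subunit of the core complex that ubiquitinates the central pair FANCD2 and FANCI, had signals of 74.2, 114.4 and 100.5 against 148.9, 154.2 and 176.4. The groups did not overlap, and the difference of 0.66 ± 0.22 missed the threshold (adjusted p = 0.0856) except with quantile normalization (0.74, adjusted p = 0.0445). With the gene's probe sets averaged, a dim untested one included, the difference of Fanca was 0.11. Fancd2 was the member with the largest difference in the other direction, with 84.9, 82.9 and 71.3 against 63.6, 19.8 and 61.6, or -0.66 ± 0.36 (adjusted p = 0.309). Its groups did not overlap either, yet a second tested probe set of Fancd2 had 0.63 ± 0.44 (adjusted p = 0.444), so the gene had no settled direction. The brighter core subunits varied less, with -0.03 ± 0.11 for the ubiquitin ligase Fancl and 0.27 ± 0.19 for Fancc. The other tested probe sets of Fancc had -0.10 ± 0.21 and -0.07 ± 0.23. The core subunits Fancb and Fancg and the translocase Fancm had differences of 0.05 ± 0.28, 0.05 ± 0.33 and 0.12 ± 0.20. In the other tested probe sets of Fancm the differences were -0.13 ± 0.29 and -0.17 ± 0.23.

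Mismatch repair had 0 of 3 genes past the threshold and 0 at an unadjusted p under 0.05. Msh6, which recognises base mismatches, had signals of 482.7, 572.0 and 591.1 against 658.5, 582.8 and 681.2. The groups overlapped through pregnant replicate 2, and the difference was 0.22 ± 0.11 (adjusted p = 0.284). Msh3, which recognises small loops, had -0.35 ± 0.18 (adjusted p = 0.283), and Pms2, of the nicking complex, had -0.0002 ± 0.14. Msh6 and Msh3 thus lay on opposite sides of 0 in their brightest probe sets, neither past the threshold. The other tested probe set of Msh3 had 0.18 ± 0.30 (adjusted p = 0.785), so its direction was not settled.

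The other repair genes were close to level, and their differences were more precise. The median of their mean signals was 590, against 162 for the replication-coupled genes. The median standard error was 0.10 for these 16 genes and 0.20 for the 24 replication-coupled genes, so smaller differences could have been seen among them. In 13 of the 16 the 95% interval lay within 0.5 on either side of 0, while this held for 5 of the 24. Of the 16, 0 passed in limma, 0 had an unadjusted p under 0.05, and 0 passed in any other setting tried.

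In break signalling Atm, the kinase activated by double-strand breaks, had signals of 726.2, 852.7 and 810.1 against 843.3, 750.2 and 838.0. The groups overlapped and the difference was 0.03 ± 0.10, with a 95% interval of -0.19 to 0.24. Trp53bp1, which shields broken ends and favours end joining, had 3946.8, 4581.9 and 4026.7 against 4023.8, 3965.6 and 4139.6, a difference of -0.05 ± 0.07 (interval -0.20 to 0.10), and 0 of its 6 tested probe sets passed. For Nbn and Rad50, partners in the complex that holds broken ends, the differences were 0.06 ± 0.11 and -0.03 ± 0.14. Chek2, the kinase downstream of ATM, was dimmer, with 87.7, 79.6 and 58.9 against 66.3, 66.8 and 92.6. Its difference of -0.0016 ± 0.28 had an interval of -0.61 to 0.60, so a change as large as the replication median of 0.55 could have been missed.

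End joining was level in the same way. Xrcc6, the Ku70 subunit, had 1052.4, 1086.5 and 1000.0 against 916.2, 943.7 and 1069.9 and a difference of -0.10 ± 0.09. Xrcc5, the Ku80 subunit that pairs with it, had 776.0, 915.7 and 874.5 against 1007.5, 909.6 and 876.9 and 0.12 ± 0.10. Both had overlapping groups, and their upper interval bounds of 0.10 and 0.34 lay below the replication median of 0.55. The ligase Lig4 and its scaffold Xrcc4 had -0.05 ± 0.17 and -0.05 ± 0.10.

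In base excision and single-strand repair Parp1, which senses strand breaks and marks them with poly(ADP-ribose), had 954.1, 1039.0 and 946.8 against 991.7, 1012.6 and 1009.9. The difference was 0.04 ± 0.08 (interval -0.15 to 0.22), and 0 of its 4 tested probe sets passed. Apex1, the endonuclease that cuts abasic sites, was the 1 gene of this class whose groups did not overlap, with 2114.3, 2119.6 and 2084.6 against 2182.1, 2362.5 and 2358.9, a difference of 0.13 ± 0.07 (adjusted p = 0.303). Ung, the glycosylase that removes uracil and is known to act partly at replication forks, had the largest difference of the class. Its signals were 110.7, 92.5 and 90.1 against 144.2, 163.5 and 105.2, groups that overlapped, and the difference was 0.42 ± 0.23 (adjusted p = 0.311). Lig3 and its scaffold Xrcc1 had 0.10 ± 0.12 and -0.14 ± 0.18, Parp2 -0.07 ± 0.10 and the 8-oxoguanine glycosylase Ogg1 -0.08 ± 0.18.

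Of the 7 members below the filter on dim probe sets, 6 were replication-coupled. Fanci, the partner of FANCD2, had signals of 41.2, 3.4 and 3.0 against 40.5, 42.7 and 67.3, and the flap nuclease Exo1 had 21.5, 38.8 and 50.1 against 61.2, 48.4 and 66.0. Rad54l, a motor protein of recombination, ran from 30.4 to 90.0, and Brip1, the helicase bound to BRCA1, from 7.7 to 86.9. Bard1, the partner of BRCA1, Rad54b and the end-joining polymerase Polq did not exceed 7.3, 19.8 and 34.2, and control probe sets for a bacterial transcript reached 32.3. In a fit with no filter 0 of these 7 passed. Such signals give no reading of direction, and the counts above do not include these genes.

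Other genes of the same pathways, from a list of 79, were compared as a check on coverage. Of 67 tested, 4 rose (5.97%) and 1 fell, where 6.1% of all genes tested rose and 5.79% fell. The median of the 67 was -0.02, and 43.3% were above 0, against 43.5% of all genes, so the list as a whole was near the background. Of the risers, 2 belong to the Fanconi anaemia pathway. Ube2t, the conjugating enzyme that works with FANCL, had signals of 178.2, 152.4 and 166.6 against 336.9, 336.2 and 371.3, a ratio of 2.10 and a difference of 1.00 ± 0.15 (adjusted p = 0.00111). Usp1, which removes the same ubiquitin from FANCD2, had 1292.6, 1281.7 and 1365.3 against 1730.9, 1935.0 and 2024.5 and 0.52 ± 0.08 (adjusted p = 0.00173). In both the groups were far apart, but averaging each gene's probe sets, dim ones included, ended both calls (0.21 and 0.28, adjusted p = 0.744 and 0.0805), and Usp1 had 0.0536 without the variance trend. Cdc25a, the phosphatase that CHK1 targets, had a rise of 0.32 ± 0.08 (adjusted p = 0.0290), which was lost when any 1 of 5 arrays was left out (up to 0.106, without pregnant replicate 2) with probe sets averaged (-0.01), with a replicate block (0.0529), without the variance trend (0.124) and under the acinar covariate (0.141). The translesion polymerase Poli had a rise of 0.61 ± 0.15 (adjusted p = 0.0228), which was lost when any 1 of 4 arrays was left out (up to 0.0909, without pregnant replicate 2), without the variance trend (0.0561) and under the acinar covariate (0.472). Cetn2, a centrosome protein that is also part of the XPC damage sensor, fell by 0.26 ± 0.07 (adjusted p = 0.0296), which was lost with median centring (-0.18, adjusted p = 0.285), with no filter (0.0506), without the variance trend (0.180), under the acinar covariate (0.602), with probe sets averaged (0.0642) and when any 1 of 4 arrays was left out (up to 0.124, without pregnant replicate 1). By pathway, 0 of 11 further base excision genes tested, 0 of 5 of end joining and 0 of 2 of mismatch repair passed in limma in either direction, and 2, 0 and 0 of them had an unadjusted p under 0.05.

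Among genes that p53 activates after DNA damage more fell than rose. Of 17 tested, 1 rose and 4 fell, with a median of -0.13, where 6.1% of all genes tested rose and 5.79% fell. Gadd45a, a stress sensor, had signals of 1246.9, 1347.4 and 1300.1 against 4127.1, 3821.7 and 3194.3, a ratio of 2.86 and a difference of 1.498 ± 0.09 (adjusted p = 1.45e-06). The other calls went down: Trp53inp1 (-0.67 ± 0.08, adjusted p = 2.29e-04), the cyclin-dependent kinase inhibitor Cdkn1a (-0.62 ± 0.11, 0.00434), Sesn1 (-0.38 ± 0.09, 0.0172) and Btg2 (-0.30 ± 0.07, 0.0232). Mdm2, the p53 ubiquitin ligase, and Ccng1 had -0.15 ± 0.12 (adjusted p = 0.535) and 0.00 ± 0.07 (0.995), neither past the threshold. The rise of Gadd45a was kept in all settings tried. Trp53inp1 lost its call with probe sets averaged (-0.43, adjusted p = 0.173) and Cdkn1a without the variance trend (0.0772). Sesn1 and Btg2 both lost theirs with median centring (0.0655 and 0.235), without the variance trend (0.126 and 0.196), under the acinar covariate (0.0568 and 0.448) and without pregnant replicate 1 (0.0632 and 0.104). Sesn1 was also lost without non-pregnant replicate 2 (0.0599) or pregnant replicate 2 (0.0630), and Btg2 without pregnant replicate 3 (0.0805), with no filter (0.0648) and with probe sets averaged (0.0717).

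Replication and mitosis genes give the scale on which the repair genes can be read. Of 27 replication genes tested 15 rose and 0 fell (median 0.55), and of 14 mitosis genes 10 rose and 0 fell (median 1.24). Without the variance trend 7 and 6 rose, and under the acinar covariate 3 and 5. The sliding clamp Pcna went from 3447 ± 135.1 to 5013 ± 203.7 and the proliferation marker Mki67 from 204.4 ± 27.1 to 675 ± 110.4. Centred on each gene, the median of the 24 replication-coupled repair genes was -0.09, -0.11 and -0.02 on non-pregnant and 0.05, 0.12 and 0.13 on pregnant arrays. For the 16 other repair genes the same medians were -0.05, 0.06 and -0.01 against 0.02, -0.02 and -0.02. The first set of arrays did not overlap and the second did. By role, the medians of the fork checkpoint did not overlap, while those of homologous recombination, the Fanconi anaemia pathway and mismatch repair did. Among the other repair genes, base excision and single-strand repair did not overlap (-0.11 to -0.04 against -0.02 to 0.03). Break signalling and end joining did. For the replication list the values were -0.26, -0.33 and -0.23 against 0.23, 0.27 and 0.26. All of these compare the same 6 arrays, so the lists are no independent evidence for each other.

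**Figure D4:**
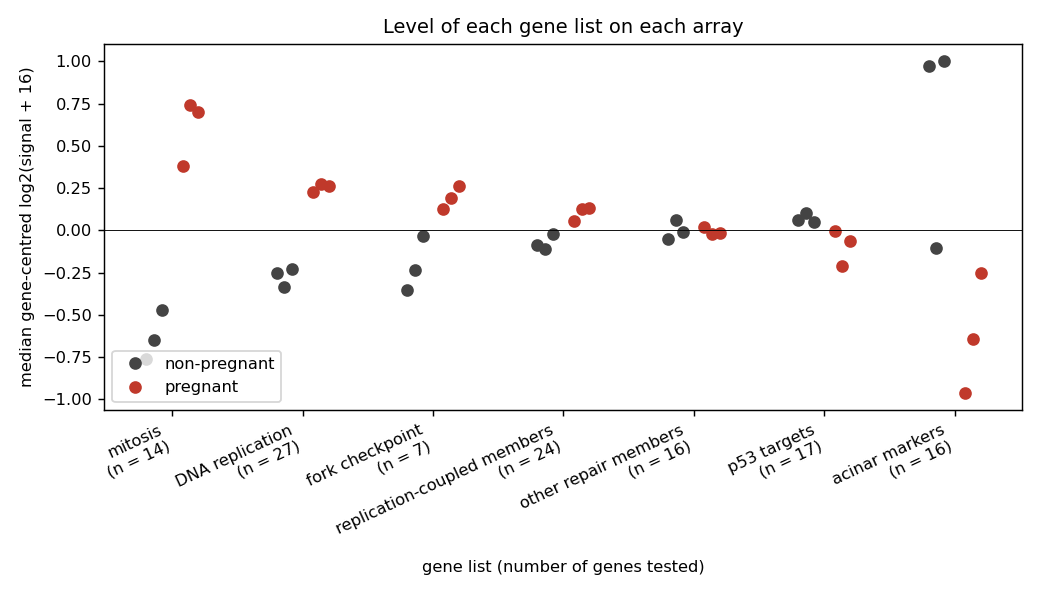
Median over the tested genes of a list of the gene-centred log2(signal + 16) (y axis) on each of the 3 non-pregnant (grey) and 3 pregnant (red) arrays, for 7 lists (x axis, with the number of genes). The distance between groups shrinks from the mitosis list through replication and the fork checkpoint to the other repair genes, and acinar markers lie on the opposite side. In that order, the medians of the per-gene differences, which are not the plotted distances, were 1.24, 0.55, 0.28, -0.01 and -1.21.

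Markers of some cells in or around the islet moved with the groups. Gene-centred array medians of acinar, stellate and endothelial markers did not overlap between groups, while those of duct, macrophage and lymphocyte markers did. Of 9 endothelial markers tested 1 was lower and 0 higher, and of 3 duct markers 1 was lower and 0 higher. Of 16 acinar markers tested 15 were lower in pregnancy and 0 higher, their summed signal ran from 191378 to 358789 on non-pregnant and from 111326 to 181073 on pregnant arrays, and 0 of them were at 0. Limma called 0 of the 16 without the variance trend or with robust variances, at the same median difference of -1.21, and 8 without pregnant replicate 1, while 16 had an unadjusted p under 0.05 in the fit used throughout. Of 10 stellate cell markers 3 were lower (2 without the trend), with summed signals of 9675 to 10148 against 5718 to 7568. Of 7 tested macrophage markers 1 was higher, C1qa (3505 against 7300), which carried the rise of their summed signal from between 6078 and 6819 to between 9409 and 10474; their median difference was 0.00, and 2 of them had all pregnant arrays below the others. Of 7 lymphocyte markers on the array 2 were bright enough to be tested and neither passed. Of 8 beta cell markers 1 rose (Pcsk1, by 0.94) and 2 fell (Slc2a2 and Slc30a8, by 0.25 and 0.29), while Ins2 and Iapp had mean signals of 18776 and 49771 without and 20510 and 50499 in pregnancy. Of 7 markers of other endocrine cells 2 fell (Ghrl by 1.14 and Irx1 by 0.40) and 0 had a difference above 0. With the acinar median of each array as a covariate the replication-coupled median was 0.28 and that of the other repair genes -0.07, and Clspn had 0.86 ± 0.46 (adjusted p = 0.452). The fork checkpoint median was 0.50 in that fit, with 7 of 7 genes above 0 and 0 past the threshold. Because the acinar medians did not overlap between groups, this fit cannot separate acinar content from pregnancy. The part of any of these cell types in the repair gene differences was not tested.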

How the data were processed

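Islet RNA of 3 non-pregnant and 3 pregnant (12.5 dpc) samples was hybridised to Affymetrix arrays after labelling 100 ng of total RNA, per the labels' protocols. The deposited values are intensities that the authors computed with MAS5, per the submitters' processing notes (its version is not given in the sources used here). No detection calls were used. Of 45101 probe sets, 64 controls were left out. Values were taken as log2(signal + 16), and the top 60% by mean over the 6 arrays (27022) were tested with limma 3.58.1 in R 4.3.3 (lmFit, eBayes with variance trend, 2-sided, Benjamini-Hochberg over all probe sets, no covariate); errors of differences are standard errors. Symbols came from the platform annotation, where 34958 probe sets have 1 symbol, 932 several and 9211 are unnamed here. Members and lists were chosen with earlier results of these data known. All members may be named; of other lists, those past the threshold, up to 4 with the smallest p, and a few fixed names. The probe sets of Brca1 and Rad51ap1 and the named cell type markers were picked out after their values were seen. Deviations of arrays sharing a replicate number correlated at -0.03, -0.07 and 0.03, so no pairing by number was seen in the values. These correlations cannot show whether such samples were prepared together, which the labels do not state. Data were simulated for this comparison (27022 probe sets, 200 of them changed, 5 draws). Of changes of 0.5, 1, 2 and 4 (log2), 32.8%, 66.4%, 94.0% and 99.2% were recovered, and 6% of calls were false. In the measured data 2587 probe sets were called, more than were changed in the simulation, so recovery there may differ. Sequences are from RefSeq (GRCm38.p6). Alternatives were other pseudocounts (1, 64), scalings, filters, variance models, a replicate block, each array left out, averaged probe sets, an acinar covariate and other class borders. Figures used matplotlib 3.10.9.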

Additional observations from a re-analysis of the deposited data

How the results depend on the processing

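The count of members higher in pregnancy was 1 (Clspn). It became 4 with quantile normalization and 3 with median centring (all replication-coupled), 2 when probe sets ending in _s_at or _x_at were avoided (chosen after seeing the data), and 0 with no filter, with no variance trend and under the acinar covariate. With 1 array left out it was 0 to 1, and 0 without non-pregnant replicate 1 or pregnant replicate 2. In these settings 0 members were lower. The acinar covariate did not overlap between the groups, so fits with it cannot separate acinar content from pregnancy. The replication-coupled median of 0.21 became 0.26 with quantile normalization, 0.28 both with median centring and under the acinar covariate, and 0.17 to 0.26 with 1 array left out. The median of the other repair genes was 0.045, 0.061 and -0.074 in the same 3 settings, and -0.021 to 0.030 with 1 array left out. Moving mismatch repair, Polq and Ung, or Rad50 and Nbn to the other class left both medians within the replicate spread. Over all probe sets 1294 were higher and 1293 lower. Median centring gave 1430 and 583, no variance trend 393 and 210, the acinar covariate 323 and 150, and leaving out 1 array 811 to 1271 higher and 677 to 976 lower. With a replicate block there were 1211 and 1145, 1 member was higher, and no call of a member changed.

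Signs turned in members not past the threshold. Under the acinar covariate the values were Brca2 -0.046, Rad51c 0.65, Fancg -0.40, Pms2 0.16, Atm -0.099, Chek2 0.063, Nbn -0.088, Xrcc5 -0.086, Xrcc1 0.45, Parp1 -0.062 and Ogg1 0.063. With probe sets averaged they were Brca1 0.22, Fancg -0.40, Fancl 0.073, Fancm -0.061, Pms2 0.17, Topbp1 -0.090, Atm -0.035 and Xrcc4 0.040, and without the _s_at and _x_at probe sets Xrcc4 0.13. With median centring they were Fancl 0.044, Pms2 0.075, Chek2 0.074, Rad50 0.047, Trp53bp1 0.029, Xrcc4 0.021, Lig4 0.026 and Parp2 0.0069, and with quantile normalization Fancl 0.0016, Pms2 0.062, Chek2 0.060, Rad50 0.033 and Lig4 0.0046. With 1 array left out the ranges that crossed 0 were -0.33 to 0.045 for Brca1, -1.09 to 0.16 for Rad51c, -0.16 to 0.59 for Blm, -0.088 to 0.24 for Fancb, -0.17 to 0.22 for Fancg, -0.11 to 0.048 for Fancl, -0.027 to 0.25 for Fancm, -0.062 to 0.064 for Pms2, -0.038 to 0.080 for Atm, -0.14 to 0.096 for Chek2, -0.084 to 0.0037 for Rad50, -0.023 to 0.11 for Nbn, -0.087 to 0.020 for Trp53bp1, -0.23 to 0.093 for Lig4, -0.35 to 0.060 for Xrcc1, -0.14 to 0.022 for Parp2 and -0.19 to 0.034 for Ogg1. The cause of these changes was not tested. The low signals of many replication-coupled genes limit what could be called.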
